A study of Mus musculus with 50 samples.

Results

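The genes of the 4 mouse Hox clusters were followed through every RNA-seq group of a series on β-catenin in embryonic stem (ES) cells. Members were taken by symbol, as a Hox cluster letter followed by a paralog number, which gave 39 of the 55421 genes in each TPM table: 11 Hoxa, 10 Hoxb, 9 Hoxc and 9 Hoxd genes. The FPKM table listed 18 of them, 8 Hoxa, 4 Hoxb, 2 Hoxc and 4 Hoxd genes. That table holds no gene at 0 in any library, so the other 21 have no value there.

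The series asks which developmental genes β-catenin and its associated proteins regulate, and 32 of its 50 samples are RNA-seq libraries; the other 18 were not analysed here. All RNA came from mouse ES cells or from epiblast-like cells (epiLC), the formative state into which naive ES cells pass when 2i is withdrawn. V6.5 is a mouse ES line, and 2i medium holds ES cells in the naive state with inhibitors of MEK and GSK3. V6.5 cells in 2i carried 1 of 4 short hairpins: shGFP, the mock control (n = 6), shBcat, which targets β-catenin (n = 2), shE2F6 (n = 2), or shHP1r, as the labels write the one against HP1γ (n = 2). Cells of a line labelled QKO, a name the labels do not spell out, carried shBcat or shGFP in 2i with a time of 48 h (n = 3 each). V6.5 cells in 2i with no hairpin named, and epiLC with no hairpin named at 24, 48 and 96 h in epiLC medium, had n = 2 each and serve as controls. EpiLC carrying shBcat were taken at 24, 48 and 96 h (n = 2 each). The sources used here do not say how many hairpins or lines stand behind a group, nor whether replicates were cultured apart; the spread that a p-value is set against may therefore be technical.

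Hox genes encode homeodomain transcription factors that give cells of the embryo their position along the head-to-tail axis. Genes lie in each cluster in the order of their paralog numbers, low numbers acting in the hindbrain and neck and high numbers in the tail, the digits and the genitalia. During gastrulation the clusters open from the low-numbered end, with Wnt, caudal (Cdx) and retinoic acid signals as known activators and Polycomb complexes as known repressors, and naive ES cells are known to hold them largely silent. Paralog numbers 1 to 3 are called anterior here, 4 to 8 central and 9 to 13 posterior. In the GRCm38.p6 assembly of RefSeq the clusters lie on chr6 from 52162417 to 52260880 (Hoxa2 to Hoxa13), chr11 from 96194316 to 96368254 (Hoxb), chr15 from 102921131 to 103036856 (Hoxc) and chr2 from 74668225 to 74765142 (Hoxd).

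RefSeq promoter windows matched 22 of the 39 members with 24 start sites, and the 250 bases before each start were searched on both strands for 6 short motifs. Their median GC content was 58.6%, against 52.4% over all 32851 windows, and their median ratio of observed to expected CpG was 0.72 against 0.37. TCF factors, the DNA-binding partners of β-catenin, recognise a short core in either of 2 forms. The form CTTTGA was found in 3 of the 24 windows (12.5%, against 13.8% of all windows), in Hoxd8, Hoxd12 and Hoxa10. The form CTTTGT was found in 5 (20.8% against 16.5%), in Hoxa3, Hoxa11, Hoxb1, Hoxd3 and Hoxd11. The CDX forms TTTATGG (Hoxd4) and TTTATTG (Hoxb8) were each found in 1 window, 4.2% against 2.4% and 4.2% of all. The E2F core TTCCCGC was found in 0 of 24 windows and in 3.8% of all, and the E-box CACGTG in 4 (16.7% against 6%), in Hoxd1, Hoxd10, Hoxd11 and Hoxd13. A match is only a string of letters in the window and was not tested as a site. The 6 windows printed here, 5′ to 3′ on the strand of the gene with matches in capitals, belong to members on which the results turn: Hoxa3, Hoxa7 and Hoxa10 in the β-catenin knockdown, Hoxb1 with shHP1r, Hoxb8 in the rise of the Hoxb cluster, and Hoxd8 in its fall at 24 h of epiLC.
Hoxa3 (chr6:52213068-52213317, minus strand): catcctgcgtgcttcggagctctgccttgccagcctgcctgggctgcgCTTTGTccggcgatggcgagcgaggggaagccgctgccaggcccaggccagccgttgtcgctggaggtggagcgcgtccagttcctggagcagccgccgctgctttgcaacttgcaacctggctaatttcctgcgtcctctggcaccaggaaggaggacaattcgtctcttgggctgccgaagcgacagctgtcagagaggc
Hoxa7 (chr6:52218574-52218823, minus strand): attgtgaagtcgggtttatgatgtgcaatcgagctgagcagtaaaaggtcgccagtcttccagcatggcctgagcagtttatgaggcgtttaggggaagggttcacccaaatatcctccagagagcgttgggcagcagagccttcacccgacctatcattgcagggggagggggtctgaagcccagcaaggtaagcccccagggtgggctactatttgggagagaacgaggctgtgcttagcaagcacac
Hoxa10 (chr6:52234940-52235189, minus strand): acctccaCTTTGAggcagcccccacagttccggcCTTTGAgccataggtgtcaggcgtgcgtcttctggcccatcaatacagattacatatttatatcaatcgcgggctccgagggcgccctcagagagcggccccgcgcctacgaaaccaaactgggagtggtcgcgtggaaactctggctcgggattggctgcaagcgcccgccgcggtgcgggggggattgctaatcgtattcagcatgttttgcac
Hoxb1 (chr11:96365508-96365757, plus strand): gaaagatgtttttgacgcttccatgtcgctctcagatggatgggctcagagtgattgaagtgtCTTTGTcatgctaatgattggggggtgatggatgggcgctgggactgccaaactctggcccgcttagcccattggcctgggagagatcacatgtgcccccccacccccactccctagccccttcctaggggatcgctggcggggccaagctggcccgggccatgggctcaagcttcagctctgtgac
Hoxb8 (chr11:96281655-96281904, plus strand): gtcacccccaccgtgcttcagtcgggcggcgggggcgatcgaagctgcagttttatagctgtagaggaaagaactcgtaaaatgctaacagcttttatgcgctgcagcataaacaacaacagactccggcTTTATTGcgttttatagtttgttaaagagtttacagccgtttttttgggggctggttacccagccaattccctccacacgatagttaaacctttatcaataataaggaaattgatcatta
Hoxd8 (chr2:74704365-74704614, plus strand): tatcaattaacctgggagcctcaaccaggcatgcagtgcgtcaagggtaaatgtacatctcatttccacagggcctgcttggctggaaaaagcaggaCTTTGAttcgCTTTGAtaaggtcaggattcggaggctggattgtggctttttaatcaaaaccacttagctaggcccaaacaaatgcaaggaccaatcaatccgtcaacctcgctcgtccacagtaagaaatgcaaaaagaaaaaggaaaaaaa
Capitals mark CTTTGT in Hoxa3 and Hoxb1, CTTTGA at 2 places each in Hoxa10 (the downstream of its 2 listed starts) and Hoxd8, and TTTATTG in Hoxb8, while the Hoxa7 window holds none of the 6 motifs.

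The targeted genes carried their labels. Ctnnb1, which encodes β-catenin, measured 6.58 and 6.61 FPKM with shBcat against 88.8 to 134 with shGFP in V6.5 cells, and E2f6 and Cbx3 (the gene of HP1γ) were the lowest in their own knockdowns. In QKO cells Ctnnb1 measured 48.4 to 82.4 TPM with shBcat and 490 to 528 with shGFP. In epiLC it measured 142 and 145 TPM with shBcat at 96 h against 441 and 448 in controls. All 7 naive and both general pluripotency markers reached 1 in every 2i library. The 5 formative markers summed to 88.8 and 92.5 TPM in 2i, 891 and 899 TPM at 24 h and 357 and 359 TPM at 48 h of control epiLC. Of the shGFP libraries, replicates 3 and 4 had 20.4% and 19.3% of their FPKM in mitochondrial genes, near the 22.9% and 22.3% of shE2F6, while the other 8 hairpin libraries had 6.23% to 10.3%. Sequencing depth is unknown for all tables.

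In V6.5 cells in 2i with no hairpin named the Hox clusters were low but not silent. Of the 39 members 14 reached a mean of 1 TPM. Sums here and below are over 38 members, and over 17 of those listed in FPKM. In 2i they came to 38.4 and 36.6 TPM, of which Hoxa held 35.8%, Hoxd 30.2%, Hoxb 21.1% and Hoxc 12.9%. At 24 h of epiLC the sum was 47.9 and 45.1 TPM, with the Hoxb share at 38.6% and the Hoxc and Hoxd shares at 2.3% and 8.7%. At 48 h the sum reached 209 and 196 TPM, of which Hoxa held 51.1% and Hoxb 43.1%. In these bulk libraries, more cells with a transcript and more transcript per cell cannot be told apart.

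From 2i to 24 h, 14 of the 26 members tested rose and 7 fell, where 36.2% of all tested genes rose and 39.8% fell. From 24 to 48 h, 24 rose and 1 fell, where 45.2% of all genes rose and 28.9% fell. Over the whole interval 20 rose and 5 fell, against 45.1% and 30.8% of all genes. A gene was tested if it reached 1 TPM in 2 libraries. Hoxa2, Hoxa6, Hoxa11, Hoxb6 and Hoxc6 did so only at 48 h, and Hoxb13 and Hoxc4 only in 2i. They were tested only through the group where they were high, and the counts include them. The median log2 change of the tested members was 0.39, 1.44 and 1.69 over these intervals, and that of all tested genes -0.04, 0.12 and 0.11. Fold changes are differences of log2(value + 1), in which the change of a gene near or under 1 comes out too small, and an adjusted p under 0.05 was the threshold. The other 13 members, 7 Hoxc, 5 Hoxd and Hoxa13, stayed under 1 TPM in at least 5 of the 6 libraries, with a highest value of 1.02 TPM (Hoxc8 at 48 h).

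**Figure D1:**
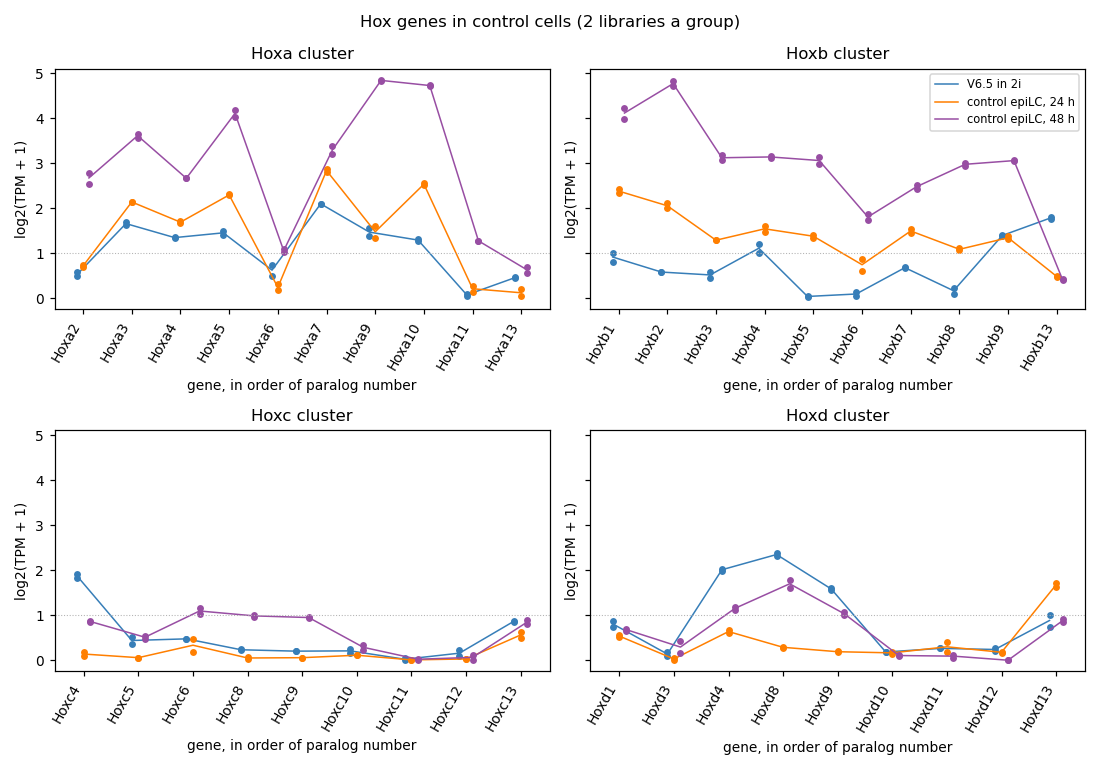
Hox genes in control cells, by cluster (panels) and in order of paralog number (x axis), as log2(TPM + 1) (y axis). Points are the 2 libraries of each group, lines join group means and the dotted line marks 1 TPM. At 48 h the Hoxa and Hoxb genes plotted up to paralog 10 lie above both earlier groups, Hoxa6 by the least, while the Hoxc and Hoxd genes stay under 3 TPM.

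The anterior Hoxa genes did not start from one level. Hoxa2, which patterns the second pharyngeal arch, measured 0.41 and 0.49 TPM in 2i, 0.68 and 0.62 at 24 h, and 5.95 and 4.84 at 48 h. Its 24 h values did not pass the test against 2i, and the 48 h libraries stood above all others (log2 change 1.95, SE 0.10, adjusted p = 5.44e-06). Hoxa3, needed for organs of the third arch such as the thymus, measured 2.1 and 2.23 TPM in 2i, 3.43 and 3.4 at 24 h, and 11.6 and 10.9 at 48 h, a rise at both steps.

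Among the central Hoxa genes, Hoxa4 measured 1.53 and 1.57 TPM in 2i, 2.2 and 2.27 at 24 h, and 5.37 and 5.35 at 48 h. Hoxa5, a regulator of lung and neck development, measured 1.83 and 1.66 TPM in 2i, 3.88 and 3.96 at 24 h, and 17.2 and 15.3 at 48 h. Hoxa7 measured 3.29 and 3.29 TPM in 2i, 6.32 and 6 at 24 h, and 9.48 and 8.19 at 48 h. These 3 rose at both steps, Hoxa5 by the most (log2 change 1.81, SE 0.08, adjusted p = 2.25e-06 from 24 to 48 h) and Hoxa7 by the least (log2 change 0.46, SE 0.08, adjusted p = 0.00177). Hoxa6, between them in the cluster, stayed near 1 TPM or under it, with 0.68 and 0.41 TPM in 2i, 0.24 and 0.13 at 24 h, and 1.14 and 1.03 at 48 h. Its fall at 24 h (log2 change -0.38, SE 0.11, adjusted p = 0.0165) did not pass without 2i replicate 1 or without 24 h replicate 2, where the log2 change was -0.25 and -0.31, and its net rise did not pass without 2i replicate 2, at 0.31.

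The posterior Hoxa genes held the steepest rise from 24 to 48 h. Hoxa9, a gene known for its part in blood stem cells and leukaemia, measured 1.61 and 1.94 TPM in 2i, 1.54 and 2.04 at 24 h, and 27.3 and 28.1 at 48 h. Its libraries at 2i and 24 h overlapped, and the rise from 24 to 48 h was the largest of the 26 (log2 change 3.37, SE 0.11, adjusted p = 7.3e-07). Hoxa10, which acts in the lumbar spine and the uterus, measured 1.5 and 1.41 TPM in 2i, 4.88 and 4.74 at 24 h, and 25.8 and 25.3 at 48 h, with a rise at both steps. Hoxa11, the next gene in the cluster, measured 0.07 and 0.04 TPM in 2i, 0.21 and 0.11 at 24 h, and 1.42 and 1.43 at 48 h. So at 48 h the mean of Hoxa10 was 17.9 times that of Hoxa11, and the high levels of the cluster ended between them. Hoxa13, a gene of the digits and genitalia, lay between 0.03 and 0.62 TPM in all 6 libraries.

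The Hoxb cluster rose nearly as a block. Hoxb1, which sets the identity of a hindbrain segment, measured 1.02 and 0.76 TPM in 2i, 4.39 and 4.06 at 24 h, and 17.9 and 14.8 at 48 h. Hoxb2 measured 0.51 and 0.49 TPM in 2i, 3.33 and 3 at 24 h, and 27.5 and 25.2 at 48 h, the largest net rise of the members (log2 change 4.19, SE 0.08, adjusted p = 4.63e-08). Hoxb3 measured 0.5 and 0.37 TPM in 2i, 1.45 and 1.45 at 24 h, and 8.07 and 7.38 at 48 h. These 3 anterior genes rose at both steps, and no library of a group overlapped those of the next.

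Of the central Hoxb genes, Hoxb4, known for expanding blood stem cells, measured 1.31 and 1.02 TPM in 2i, 2.04 and 1.8 at 24 h, and 7.96 and 7.71 at 48 h. Hoxb5 measured 0.04 and 0.02 TPM in 2i, 1.67 and 1.54 at 24 h, and 7.77 and 6.95 at 48 h. Hoxb6 measured 0.04 and 0.1 TPM in 2i, 0.84 and 0.52 at 24 h, and 2.65 and 2.36 at 48 h. All 3 rose at both steps, and Hoxb5 and Hoxb6 did so from 0.1 TPM or less in 2i. Hoxb7 measured 0.61 and 0.6 TPM in 2i, 1.92 and 1.73 at 24 h, and 4.75 and 4.42 at 48 h. Hoxb8, whose window holds a CDX motif, measured 0.18 and 0.07 TPM in 2i, 1.16 and 1.1 at 24 h, and 6.73 and 7.05 at 48 h. These 2 also rose at both steps, so 8 of the 10 Hoxb genes did. Of the 26 tested members 13 rose at both steps, where 10.1% of all tested genes did: beside the 8 Hoxb genes these were 5 of 10 tested Hoxa genes and 0 of 6 tested Hoxc and Hoxd genes. The difference between clusters was not tested.

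The posterior end of the Hoxb cluster moved in opposite directions. Hoxb9, which shapes the ribs, measured 1.63 and 1.64 TPM in 2i, 1.61 and 1.48 at 24 h, and 7.41 and 7.29 at 48 h, with no call at 24 h (adjusted p = 0.552) and a rise after it (log2 change 1.71, SE 0.07, adjusted p = 2.18e-06). Hoxb13, a gene of the tail and prostate that lies far from its neighbours, measured 2.51 and 2.41 TPM in 2i, 0.41 and 0.39 at 24 h, and 0.34 and 0.32 at 48 h. It fell from 2i to 24 h (log2 change -1.31, SE 0.07, adjusted p = 5.42e-06) and was the 1 Hoxb gene with no rise by 48 h. With each library left out in turn, 18 of the 21 calls at 24 h, 20 of the 25 from 24 to 48 h and 18 of the 25 over both steps held throughout; Hoxa6 was the 1 member lost by the test, and the others left the filter of 1 TPM in 2 libraries.

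In the Hoxc and Hoxd clusters the first 24 h brought falls. Hoxc4 measured 2.75 and 2.55 TPM in 2i, 0.07 and 0.13 at 24 h, and 0.8 and 0.83 at 48 h. Hoxd4 measured 2.96 and 3.1 TPM in 2i, 0.59 and 0.52 at 24 h, and 1.18 and 1.27 at 48 h. Hoxd8 measured 3.95 and 4.24 TPM in 2i, 0.21 and 0.23 at 24 h, and 2.44 and 2.05 at 48 h. Each of them fell at 24 h, Hoxd8 by the most of all members (log2 change -2.06, SE 0.09, adjusted p = 1.7e-06), and each rose again by 48 h without reaching its 2i level. Hoxd9 measured 2.05 and 1.95 TPM in 2i, 0.13 and 0.15 at 24 h, and 1 and 1.09 at 48 h, the same course. Hoxc6, a thoracic gene, measured 0.39 and 0.39 TPM in 2i, 0.39 and 0.13 at 24 h, and 1.24 and 1.03 at 48 h, with no call at 24 h and a rise after it (log2 change 0.77, SE 0.12, adjusted p = 0.000843). Net of both steps, Hoxc4, Hoxd4, Hoxd8, Hoxd9 and Hoxb13 were the 5 that fell.

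Hoxd13, the last gene of the Hoxd cluster and a digit gene, ran against the rest. It measured 1.01 and 0.68 TPM in 2i, 2.31 and 2.08 at 24 h, and 0.89 and 0.79 at 48 h. The 24 h libraries were the high ones: it rose at 24 h (log2 change 0.80, SE 0.11, adjusted p = 0.000451), was the 1 member that fell from 24 to 48 h (log2 change -0.80, SE 0.11, adjusted p = 0.000486), and had a net change near 0 (log2 change 0.00, SE 0.11, adjusted p = 0.992).

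Markers of other lineages moved in the same libraries. The 5 neural progenitor markers summed to 3.66 and 3.68 TPM in 2i, 38.4 and 38.6 at 24 h and 62.4 to 68.1 at 48 h, with 3 of 5 at 1 TPM or more from 24 h on. The 11 fibroblast markers summed to 5.81 and 6.69 TPM, 15.1 and 16.9 TPM, and 28.7 and 28.9 TPM, with 2, 3 and up to 8 of them at 1 TPM or more, and up to 3 at 0 in 2i. The 5 trophoblast markers, keratins among them, summed to 67.7 and 72.3, 30.8 and 31.8, and 189 and 195 TPM. The 6 markers of posterior mesoderm summed to 6.45 and 6.67, 3.21 and 3.4, and 5.87 and 6.26 TPM, with 1 or 2 of 6 at 1 TPM or more. Their part in the Hox changes was not tested.

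With β-catenin knocked down in V6.5 cells in 2i, Hox transcripts were lower, most of all in the Hoxa cluster. The 17 members summed to 5.34 and 5.5 FPKM with shBcat against 10.7 to 15.1 FPKM over the 6 shGFP libraries. The Hoxa genes among them summed to 0.81 and 0.99 FPKM against 3.61 to 6.31, and the listed Hoxd genes to 1.6 and 1.54 against 1.41 to 2.38, where the groups overlapped. Of the 7 members tested, 4 fell and 0 rose, where 5.21% of all tested genes fell and 3.51% rose. Their median log2 change was -0.76, that of all tested genes 0.01.

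Hoxa7 ranged from 1.14 to 2.23 FPKM (median 1.72) over the 6 shGFP libraries and measured 0.248 and 0.354 FPKM with shBcat, without overlap (log2 change -1.03, SE 0.20, adjusted p = 0.01). Hoxb9 ranged from 1.81 to 2.73 FPKM (median 2.33) over the 6 shGFP libraries and measured 0.898 and 0.807 FPKM with shBcat (log2 change -0.84, SE 0.12, adjusted p = 0.00235). Hoxa4 ranged from 0.436 to 0.788 FPKM (median 0.522) over the 6 shGFP libraries and measured 0.195 and 0.172 FPKM, with the smallest of the 4 falls (log2 change -0.41, SE 0.11, adjusted p = 0.0435). Hoxa4 and Hoxa7 are central genes and Hoxb9 a posterior one. Without shBcat replicate 1, Hoxa4 and Hoxa7 no longer passed (2 members called), and without replicate 2, Hoxb9 did not either (1 called). Hoxa7 values of shGFP came in near-equal pairs, 2.23 and 2.12 FPKM in replicates 1 and 2, 1.66 and 1.77 in 3 and 4, and 1.19 and 1.14 in 5 and 6; with the libraries averaged in such pairs, 0 members and 0 of all genes passed. Hoxa4 also lost its call without shGFP replicate 2, 3, 4, 5 or 6 and with median-of-ratios scaling.

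The other 3 tested members did not pass in this fit. Hoxa5 ranged from 0.707 to 1.37 FPKM (median 1.03) over the 6 shGFP libraries and measured 0.166 and 0.209 FPKM with shBcat, without overlap (log2 change -0.76, SE 0.22, adjusted p = 0.0617). It was called lower with a pseudocount of 0.1 (5 members called), with the compared groups fitted alone or median-of-ratios scaling (4 each), and with a term for shE2F6 and shGFP replicates 3 and 4 (6, Hoxc4 included), under which 3473 in place of 1255 of all tested genes were called. Hoxc4 ranged from 0.773 to 1.25 FPKM (median 0.885) over the 6 shGFP libraries and measured 0.606 and 0.534 FPKM (log2 change -0.32, SE 0.12, adjusted p = 0.126). Hoxc13, a gene of hair and nails, ranged from 1.03 to 1.44 FPKM (median 1.35) over the 6 shGFP libraries and measured 1.01 and 1.27 FPKM, overlapping the controls (log2 change -0.09, SE 0.11, adjusted p = 0.683).

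The other 11 listed members did not reach 1 FPKM in 2 libraries and could be compared only without that filter. Over all 18 listed members, both shBcat libraries lay below all 6 shGFP libraries in 12 and above them in 0, where 16.7% of all listed genes lay below and 16.8% above. Hoxa3 ranged from 0.388 to 0.688 FPKM (median 0.467) over the 6 shGFP libraries and measured 0.0665 and 0.0782 FPKM with shBcat. Hoxa10 ranged from 0.265 to 0.941 FPKM (median 0.379) over the 6 shGFP libraries and measured 0.0408 and 0.0719 FPKM. Hoxa2 ranged from 0.152 to 0.464 FPKM (median 0.332) over the 6 shGFP libraries and measured 0.0264 and 0.0233 FPKM. These 3 lay without overlap under the controls, as did Hoxb1, Hoxd1 and Hoxd8. With no filter and a pseudocount of 0.1 together, a setting chosen after seeing the data, 8 of the 18 fell, among them Hoxa2, Hoxa3, Hoxa4, Hoxa5, Hoxa7, Hoxa10 and Hoxb9. Hoxd13 ranged from 0.495 to 0.759 FPKM (median 0.637) over the 6 shGFP libraries and measured 0.716 and 0.663 FPKM with shBcat, so the posterior end of Hoxd overlapped the controls.

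Markers of other cell states moved with the same shBcat libraries. The 3 listed neural progenitor markers summed to 5.89 and 6.33 FPKM with shBcat against 1.46 to 3.15 FPKM with shGFP, with all 3 and up to 2 of them at 1 FPKM or more. The 5 formative markers summed to 27.9 and 29.5 against 14.3 to 18.1 FPKM, and the 5 trophoblast markers to 49.2 and 52 against 30.3 to 45.6 FPKM. The trophoblast list was mixed, with 3 at 1 FPKM or more with shBcat and 4 with shGFP. Its highest member, Tfap2c, lay inside the control range, at 30.4 and 31.1 against 19.4 to 32.8 FPKM. Eomes, which is also in the posterior mesoderm list, was lower, at 0.73 and 0.88 against 1.95 to 6.45 FPKM. The 2 listed markers of posterior mesoderm, of 6 in that list, were lower, at 0.92 and 1.12 against 2.41 to 6.72 FPKM. The naive and fibroblast sums overlapped the controls, the latter at 2.04 and 1.84 against 1.58 to 3.17 FPKM. Their part in the Hox values was not tested.

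**Figure D2:**
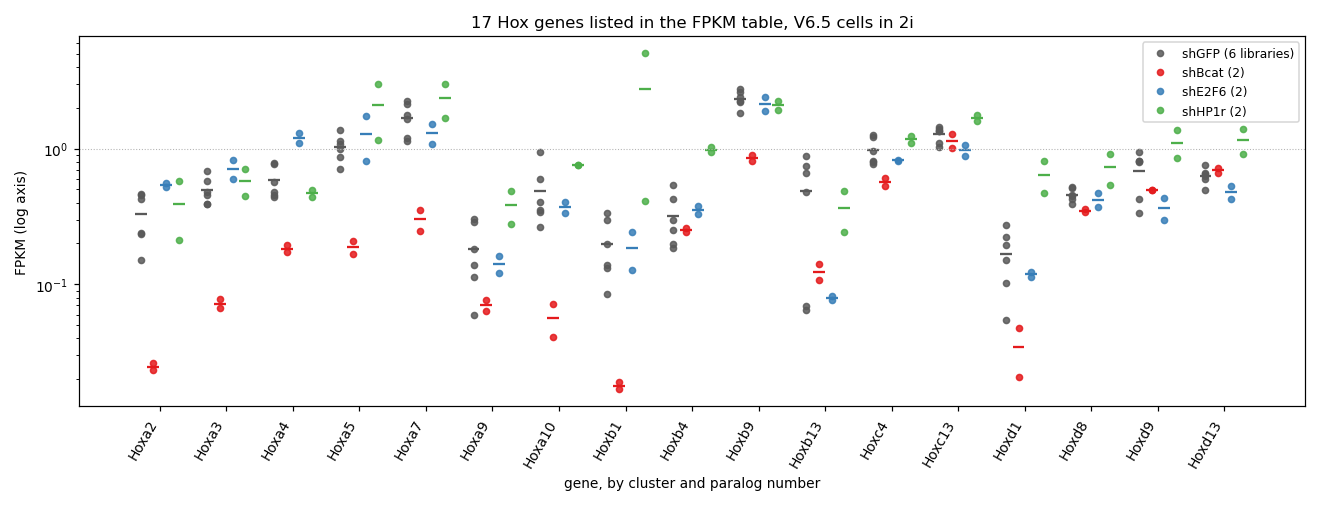
FPKM (log axis) of 17 of the 18 listed Hox genes in each V6.5 hairpin library in 2i, by cluster and paralog number; points are libraries, short bars group means and the dotted line marks 1 FPKM. The red shBcat points lie below every grey shGFP point for 11 of these genes, 6 of them Hoxa genes, and overlap the controls for the other 6, among them Hoxc13 and Hoxd13.

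Knockdown of E2F6, the DNA-binding subunit of a noncanonical Polycomb complex, gave 0 Hox calls among the 7 tested members in limma, where 1.06% of all tested genes were called. At an unadjusted p under 0.05 there was 1, Hoxa4, which was tested only through the shE2F6 libraries, since no other hairpin library reached 1 FPKM. It measured 1.09 and 1.29 FPKM with shE2F6, above all 6 shGFP libraries, of which replicates 3 and 4 were the highest at 0.788 and 0.766 FPKM (log2 change 0.47, SE 0.11, adjusted p = 0.0607), while the median of all tested genes stood at -0.20. It passed when shGFP replicate 3 or replicate 4 was left out, the controls whose mitochondrial share resembles that of shE2F6, but so did 4166 and 3435 of all tested genes, against 153 with every library and 14 to 44 with any other library of the compared groups left out. Hoxb9 measured 1.89 and 2.39 FPKM with shE2F6, inside the control range. Hoxa5 measured 0.813 and 1.73 FPKM and Hoxa7 1.08 and 1.52 FPKM, each with 1 library inside the control range. Hoxc4 measured 0.825 and 0.811 FPKM and Hoxc13 1.07 and 0.877 FPKM.

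With shHP1r, which targets a heterochromatin protein that binds methylated histone H3, 0 of the 7 tested members passed in limma, where 7.59% of all tested genes did. At an unadjusted p under 0.05, 3 were higher, Hoxa5 and Hoxc13 among them, with no share of all tested genes given for that p. Hoxa5 measured 2.99 and 1.16 FPKM in shHP1r replicates 1 and 2 (log2 change 0.54, SE 0.22, adjusted p = 0.175), and Hoxa7 measured 3 and 1.69 FPKM. Replicate 1 was the high one in both, and Hoxa5 was called without replicate 2. Hoxc13 measured 1.59 and 1.77 FPKM and Hoxc4 1.1 and 1.24 FPKM, with replicate 2 the higher. Hoxb9 measured 1.91 and 2.25 FPKM and Hoxa4 0.436 and 0.498 FPKM, inside the control range.

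Below the filter the 2 shHP1r libraries differed most at Hoxb1, which measured 5.04 and 0.41 FPKM against 0.0843 to 0.336 FPKM (median 0.168) with shGFP. Hoxb4 measured 1.02 and 0.943 FPKM against 0.185 to 0.542 FPKM (median 0.275). Hoxd1 measured 0.804 and 0.469 FPKM against 0.0547 to 0.272 FPKM (median 0.172). In these 3 genes both libraries stood above all controls, as they did in 7 of the 18 listed members, where 17.8% of all listed genes did. Without the filter 3 members rose (Hoxb4, Hoxd1 and Hoxd13), and with the pseudocount of 0.1 as well 4 did, Hoxb1 being added. The 5 fibroblast markers in this table summed to 8.67 and 4.85 FPKM with shHP1r and 1.58 to 3.17 FPKM with shGFP, with up to 3 of them at 1 FPKM or more. Their part in these values was not tested.

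Set directly against shBcat, Hox genes were higher in both other knockdowns. With shHP1r, 4 of the 7 tested members were higher than with shBcat and 0 lower, where 6.97% of all tested genes were higher. Among them were Hoxa7 (log2 change 1.34, SE 0.24, adjusted p = 0.00511), Hoxa5 and Hoxb9. Without shBcat replicate 1 there was 1 call, and without shBcat replicate 2 or shHP1r replicate 1 there were 2. With shE2F6, 5 of 7 were higher, where 5.01% of all tested genes were, among them Hoxa4 (log2 change 0.89, SE 0.14, adjusted p = 0.00407), Hoxb9, Hoxa7 and Hoxa5. Hoxa4 reached 1 FPKM only in the shE2F6 libraries, so it was among the 7 only through the group where it was high. With no filter on low values it was also called in limma (adjusted p = 0.00236). Leaving out either shBcat library or shE2F6 replicate 2 left 1 call, and leaving out shE2F6 replicate 1 left 2. The median of all tested genes was -0.20 for shE2F6 against shBcat and 0.00 for shHP1r against shBcat. These comparisons share the shBcat libraries with the one against shGFP and are not independent of it.

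Of the genes known to act on the clusters, 2 of the 5 tested caudal and other activators fell with shBcat against shGFP. Cdx1, a caudal factor, ranged from 8.11 to 27.8 FPKM with shGFP and measured 0.102 and 0.112 FPKM with shBcat (log2 change -4.03, adjusted p = 0.0003), and T, the gene of Brachyury, fell from a mean of 0.938 to 0.106 FPKM (adjusted p = 0.00528). With retinoic acid signalling genes 1 of 9 rose, Cyp26a1, which degrades retinoic acid, from a mean of 0.21 to 2.98 FPKM (adjusted p = 1.8e-05). Cyp26a1 reached 1 FPKM only with shBcat, so it was tested only through the group where it was high. Of 23 Polycomb and Trithorax genes and 6 TALE cofactors, the partners of Hox proteins on DNA, 0 passed in limma (4 and 2 at an unadjusted p under 0.05). Against shGFP, 0 of 54 tested genes of these and the other lists passed with shE2F6 (18 unadjusted). With shHP1r T was lower (adjusted p = 0.034), and Rxra and Crabp1 were higher (adjusted p = 0.0282 and 0.0493).

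In QKO cells in 2i the same hairpin gave 0 Hox calls among 17 tested members in limma, where 2.15% of all tested genes were called. At an unadjusted p under 0.05, 8 were lower and 0 higher. The share of all tested genes under that p is not given here, so this count alone cannot show an excess. The median log2 change of the 17 was -0.33, that of all tested genes -0.04, and 16 of the 17 changes were negative. The 38 members summed to 47.5, 56.3 and 46.2 TPM with shGFP and to 39.5, 32.8 and 31.6 TPM with shBcat. In 10 of the 17 all shBcat libraries lay below all shGFP libraries, where 24.6% of all tested genes did. Hoxa9, Hoxa10, Hoxb4, Hoxc6, Hoxc10, Hoxd10 and Hoxd11 reached 1 TPM only with shGFP, so they were tested only through the group where they were high. They are all among these 10, and the counts and the median of the 17 include them, so these were partly set by the filter.

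The highest member was Hoxb9, with 11.7, 11.9 and 11.6 TPM with shGFP and 9.43, 7.87 and 6.88 TPM with shBcat. Its groups did not overlap and it came nearest to a call (log2 change -0.50, SE 0.11, adjusted p = 0.0529). It passed when shBcat replicate 1 was left out. Hoxc13 measured 3.84, 4.64 and 4.57 TPM with shGFP and 4.29, 3.69 and 3.29 TPM with shBcat. Hoxc4 measured 3.46, 3.02 and 3.54 TPM with shGFP and 2.9, 4 and 3.68 TPM with shBcat, the 1 member with a positive change. Hoxa7 measured 3.63, 4.45 and 3.43 TPM with shGFP and 2.97, 2.87 and 2.39 TPM with shBcat, without overlap (log2 change -0.37, SE 0.12, adjusted p = 0.103).

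The changes largest in size on the log2 scale lay among genes of lower level. Hoxa10 measured 1.51, 2.44 and 1.43 TPM with shGFP and 0.79, 0.6 and 0.88 TPM with shBcat (log2 change -0.65, SE 0.17, adjusted p = 0.0669). Hoxc10, a lumbar gene, measured 1.07, 2.11 and 0.83 TPM with shGFP and 0.49, 0.27 and 0.44 TPM with shBcat (log2 change -0.70, SE 0.22, adjusted p = 0.091). Hoxa9 measured 0.85, 1.31 and 1.19 TPM with shGFP and 0.65, 0.44 and 0.63 TPM with shBcat. In these 3 the highest library was shGFP replicate 2 and the groups did not overlap. Hoxd10 measured 1, 1.5 and 1.2 TPM with shGFP and 0.78, 0.49 and 0.74 TPM with shBcat, and Hoxd11 measured 1.34, 1.04 and 0.99 TPM with shGFP and 0.71, 0.54 and 0.82 TPM with shBcat. Hoxd9 measured 2.41, 2.49 and 2.28 TPM with shGFP and 2.37, 1.89 and 1.6 TPM with shBcat. Hoxd13 measured 2.05, 2.32 and 2.8 TPM with shGFP and 2.39, 1.86 and 2.15 TPM with shBcat. The groups were apart in Hoxd10 and Hoxd11 and overlapped in Hoxd9 and Hoxd13.

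Among the anterior and central genes of similar level, Hoxc6 measured 1.12, 2.08 and 0.88 TPM with shGFP and 0.64, 0.62 and 0.4 TPM with shBcat. Hoxa5 measured 1.32, 2.4 and 1.42 TPM with shGFP and 1.51, 0.75 and 0.73 TPM with shBcat. Hoxb4 measured 1.3, 1.18 and 1.23 TPM with shGFP and 0.87, 0.94 and 0.81 TPM with shBcat. The groups were apart in Hoxc6 and Hoxb4, while a shBcat value of Hoxa5 lay inside its shGFP range. Hoxa3 measured 1.32, 1.11 and 1.26 TPM with shGFP and 1.18, 0.87 and 1.02 TPM with shBcat. Hoxd8 measured 1.14, 1.53 and 1.3 TPM with shGFP and 1.27, 0.74 and 1.22 TPM with shBcat. Both overlapped. The other 22 members did not reach 1 TPM in 2 libraries, with a highest value of 1.2 TPM (Hoxa4 with shBcat).

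Fibroblast markers moved with the same groups. All 11 were listed, and they summed to 358, 604 and 259 TPM in shGFP replicates 1 to 3 and to 70.3, 87.1 and 97.5 TPM in the shBcat replicates, with 10 of 11 at 1 TPM or more in each shGFP library and 9 or 10 with shBcat, and 0 at 0. Col3a1, a fibrillar collagen, measured 139.6, 263 and 106 TPM with shGFP and 23.1, 28.4 and 36.2 TPM with shBcat. Col1a1 measured 85.1, 135 and 55.3 TPM with shGFP and 14.7, 20 and 20.1 TPM with shBcat. The shGFP library with the highest fibroblast sum, replicate 2, also had the highest Hox sum. Within shBcat the order was the reverse: the Hox sums of replicates 1 to 3 were 39.5, 32.8 and 31.6 TPM, falling as the fibroblast sums rose. In the control 2i libraries without a hairpin the same list summed to 5.81 and 6.69 TPM in a separately normalized table. Fibroblasts are known to express Hox genes, and the part of these markers in the Hox values was not tested.

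**Figure D3:**
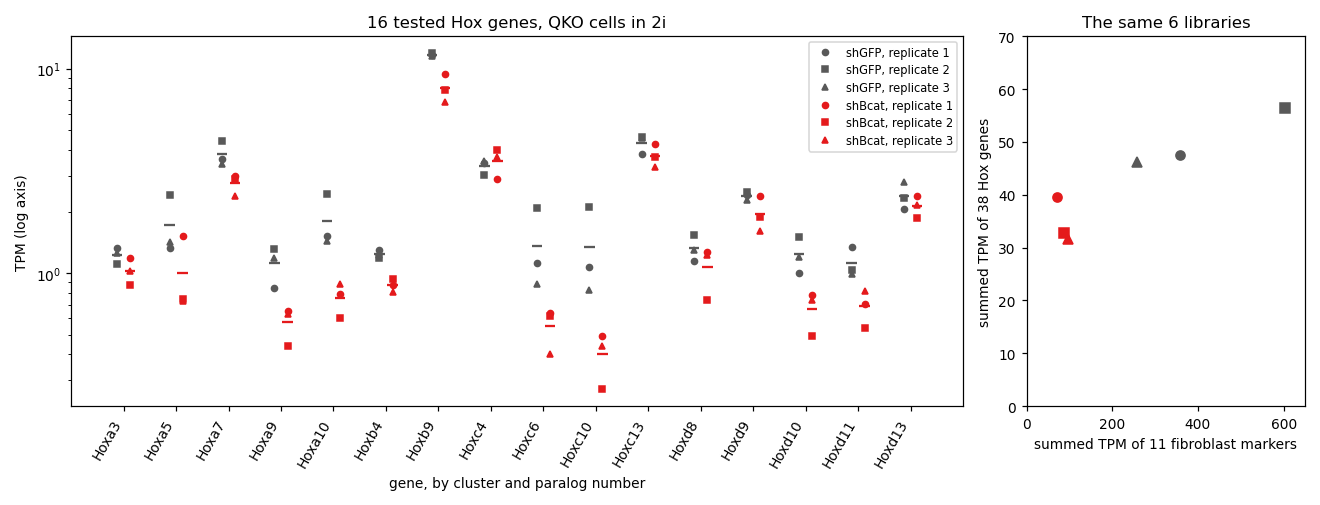
Left, TPM (log axis) of 16 of the 17 tested Hox genes in QKO libraries with shGFP (grey) or shBcat (red); marker shapes give the replicate and bars the group means. Right, the summed TPM of 38 Hox genes (y axis) against the summed TPM of 11 fibroblast markers (x axis) in the same 6 libraries; the 3 shGFP libraries lie at 259 to 604 TPM of markers and the 3 shBcat libraries at 70.3 to 97.5 TPM.

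Set side by side, each in its own table, the log2 change of Hoxa7 with shBcat was -1.03 in V6.5 cells and -0.37 in QKO cells, and that of Hoxb9 was -0.84 and -0.50. Cdx1 measured 1.4 to 1.6 TPM with shGFP and 1.08 to 1.48 TPM with shBcat in QKO cells. The difference between the lines was not tested, since the tables are in different units. Of the companion lists, 1 of 4 tested activators and 1 of 14 retinoic acid genes (Aldh1a1, from 2.92 to 0.977 TPM, adjusted p = 0.0488) fell in QKO cells with shBcat. Of 23 Polycomb and Trithorax genes and 9 TALE cofactors, 0 passed in limma (6 and 1 at an unadjusted p under 0.05).

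In epiLC carrying shBcat the clusters rose over time and by 96 h stood near the control. The 38 members summed to 76.5 and 74.4 TPM at 24 h, 194 and 186 TPM at 48 h, and 274 and 294 TPM at 96 h, against 277 and 303 TPM in control epiLC at 96 h. Of 28 tested members 3 were higher and 1 lower than control at 96 h, where 2.29% of all tested genes were higher and 2.54% lower. Of the 3 higher, Hoxc13 was tested only through its 96 h shBcat libraries. The median log2 change was 0.01, that of all tested genes -0.01. Between 24 and 48 h with shBcat 17 rose and 1 fell, where 15.7% of all tested genes rose and 17.8% fell. Between 48 and 96 h 15 rose and 1 fell, where 25.2% rose and 9.83% fell. Of the 15, Hoxc4, Hoxc5, Hoxc8, Hoxc9 and Hoxd9 were tested only through 96 h libraries, the only ones in which they reached 1 TPM.

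Hoxd13 differed most from control at 96 h. It measured 2.74 and 3.03 TPM at 24 h, 3.51 and 2.99 at 48 h and 2.2 and 2.3 at 96 h with shBcat, against 0.92 and 0.91 in control cells at 96 h. Both shBcat libraries at 96 h stood above both controls of that time (log2 change 0.76, SE 0.10, adjusted p = 0.00663). The shBcat libraries of 24 and 48 h were not tested against a control. With shBcat Hoxd13 fell from 48 to 96 h (log2 change -0.38, SE 0.10, adjusted p = 0.0223). Hoxc13, its paralog in the Hoxc cluster, measured 0.91 and 0.61 TPM at 24 h, 0.87 and 0.84 at 48 h and 1.04 and 1.19 at 96 h with shBcat, against 0.3 and 0.39 in control cells at 96 h, and was higher with shBcat at 96 h (log2 change 0.65, SE 0.12, adjusted p = 0.0251). Hoxc13 reached 1 TPM in no other group, so it was tested only through the group where it was high. Hoxa5 measured 6.65 and 6.66 TPM at 24 h, 14.98 and 14.7 at 48 h and 16.9 and 18.3 at 96 h with shBcat, against 12.6 and 14.3 in control cells at 96 h, also higher (log2 change 0.37, SE 0.08, adjusted p = 0.0428). Hoxa7 was the 1 lower member, with 11.1 and 10.96 TPM at 24 h, 10.4 and 9.81 at 48 h and 11.3 and 13.9 at 96 h with shBcat, against 17.03 and 19.4 in control cells at 96 h (log2 change -0.50, SE 0.10, adjusted p = 0.0365). With 1 of these 4 libraries left out in turn Hoxd13 kept its call, while the count of calls was 1 without either control library or without shBcat replicate 1, and 2 without shBcat replicate 2.

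The anterior genes rose strongly in the first step. Hoxa2 measured 0.77 and 0.99 TPM at 24 h, 5.03 and 4.67 at 48 h and 10.2 and 10.97 at 96 h with shBcat, against 10.5 and 11.5 in control cells at 96 h. Hoxa3 measured 4.79 and 5.33 TPM at 24 h, 12.9 and 12.8 at 48 h and 15.4 and 18.6 at 96 h with shBcat, against 13.5 and 16.6 in control cells at 96 h. Both rose at both steps, and at 96 h their libraries overlapped those of the control. Hoxb1 measured 5.11 and 4.69 TPM at 24 h, 20.9 and 21.7 at 48 h and 25.2 and 27.4 at 96 h with shBcat, against 30.3 and 32.5 in control cells at 96 h. Hoxb2 measured 5.2 and 5.24 TPM at 24 h, 25.6 and 23.7 at 48 h and 37.1 and 37.1 at 96 h with shBcat, against 41.2 and 41.99 in control cells at 96 h, with the largest rise from 24 to 48 h (log2 change 2.04, SE 0.06, adjusted p = 3.94e-06). Hoxb3 measured 2.75 and 2.7 TPM at 24 h, 10.2 and 8.6 at 48 h and 9.11 and 10.6 at 96 h with shBcat, against 10.1 and 11.96 in control cells at 96 h. The 96 h shBcat libraries of Hoxb1 and Hoxb2 lay below both controls without passing the test (log2 change -0.25, SE 0.07, adjusted p = 0.11 for Hoxb1).

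Of the central genes, Hoxa4 measured 4.02 and 3.9 TPM at 24 h, 9.42 and 9.44 at 48 h and 8.32 and 8.81 at 96 h with shBcat, against 7.82 and 7.85 in control cells at 96 h. Hoxa6 measured 0.23 and 0.33 TPM at 24 h, 0.54 and 0.64 at 48 h and 0.77 and 1.06 at 96 h with shBcat, against 0.87 and 1.3 in control cells at 96 h. Hoxb4 measured 3.14 and 3.39 TPM at 24 h, 7.45 and 6.93 at 48 h and 8.26 and 8.32 at 96 h with shBcat, against 7.73 and 8.33 in control cells at 96 h. Hoxa4 and Hoxb4 rose from 24 to 48 h, and Hoxa6 passed at neither step. Hoxb5 measured 2.65 and 2.4 TPM at 24 h, 9.52 and 9.92 at 48 h and 11.5 and 12.9 at 96 h with shBcat, against 9.35 and 11.5 in control cells at 96 h. Hoxb6 measured 0.55 and 0.7 TPM at 24 h, 3.57 and 2.51 at 48 h and 4.16 and 4.57 at 96 h with shBcat, against 3.91 and 4.98 in control cells at 96 h. Hoxb7 measured 2.4 and 3.17 TPM at 24 h, 5.05 and 4.22 at 48 h and 6.74 and 5.55 at 96 h with shBcat, against 6.14 and 6.26 in control cells at 96 h. These rose at the first step and did not pass at the second, where their adjusted p lay between 0.067 and 0.0839. Hoxb8 measured 1.24 and 0.88 TPM at 24 h, 4.03 and 3.54 at 48 h and 5.54 and 6.52 at 96 h with shBcat, against 5.67 and 6.05 in control cells at 96 h, and rose at both steps (log2 change 1.22, SE 0.12, adjusted p = 0.000318 at the first).

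The posterior Hoxa genes were still rising between 48 and 96 h. Hoxa9 measured 3.14 and 2.21 TPM at 24 h, 13.1 and 11.4 at 48 h and 37.8 and 37.5 at 96 h with shBcat, against 41.4 and 46.2 in control cells at 96 h. Hoxa10 measured 9.84 and 9.02 TPM at 24 h, 23.7 and 22.4 at 48 h and 39.7 and 41.3 at 96 h with shBcat, against 34.6 and 35.4 in control cells at 96 h. Hoxa11 measured 0.39 and 0.35 TPM at 24 h, 1 and 1.11 at 48 h and 2.01 and 2.74 at 96 h with shBcat, against 2.64 and 2.59 in control cells at 96 h. Hoxa9 had the largest rise of the second step (log2 change 1.54, SE 0.12, adjusted p = 0.000177), and Hoxa10 at 96 h had both shBcat libraries above both controls without a call (log2 change 0.20, SE 0.06, adjusted p = 0.129). Hoxb9 measured 2.64 and 2.76 TPM at 24 h, 6.07 and 6.86 at 48 h and 8.7 and 10.7 at 96 h with shBcat, against 8.09 and 9.05 in control cells at 96 h, a rise at both steps. Hoxb13 measured 1.09 and 1.14 TPM at 24 h, 0.6 and 0.61 at 48 h and 0.53 and 0.36 at 96 h with shBcat, against 0.5 and 0.43 in control cells at 96 h, and was the 1 member that fell from 24 to 48 h (log2 change -0.40, SE 0.11, adjusted p = 0.0269). Hoxb13 reached 1 TPM only at 24 h, so it was tested only through the group where it was high.

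Of the 5 tested Hoxc genes, 4 rose from 48 to 96 h. All 5 reached 1 TPM only in 96 h libraries, so they were tested only through that time. The count was therefore partly set by the filter and does not show that the cluster as a whole rose late. Hoxc4 measured 0.45 and 0.35 TPM at 24 h, 0.52 and 0.67 at 48 h and 1.74 and 1.78 at 96 h with shBcat, against 1.63 and 2.01 in control cells at 96 h. Hoxc5 measured 0.17 and 0.14 TPM at 24 h, 0.28 and 0.4 at 48 h and 1.45 and 1.08 at 96 h with shBcat, against 1.07 and 1.11 in control cells at 96 h. Hoxc8 measured 0 and 0.08 TPM at 24 h, 0.11 and 0.08 at 48 h and 0.69 and 0.76 at 96 h with shBcat, against 1.18 and 1.32 in control cells at 96 h. None of these 3 passed from 24 to 48 h and all did afterwards (log2 change 0.66, SE 0.11, adjusted p = 0.00372 for Hoxc8). Hoxc9 measured 0.21 and 0.09 TPM at 24 h, 0.15 and 0.2 at 48 h and 0.85 and 0.98 at 96 h with shBcat, against 1.12 and 1.33 in control cells at 96 h, the same course. In Hoxc8 both shBcat libraries at 96 h lay below both controls without a call (log2 change -0.38, SE 0.11, adjusted p = 0.0998). Hoxd8 measured 1.34 and 0.55 TPM at 24 h, 1.08 and 1.64 at 48 h and 2.13 and 2.58 at 96 h with shBcat, against 2.17 and 1.69 in control cells at 96 h. Hoxd9 measured 0.64 and 0.58 TPM at 24 h, 0.73 and 0.83 at 48 h and 1.15 and 1.25 at 96 h with shBcat, against 0.99 and 1.01 in control cells at 96 h, with a rise after 48 h at the edge of the threshold (log2 change 0.31, SE 0.10, adjusted p = 0.0486). Hoxd9 too reached 1 TPM only at 96 h. Without shBcat replicate 2 at 96 h, 10 members in place of 16 passed between 48 and 96 h, and Hoxd13, Hoxd9, Hoxa3, Hoxb1, Hoxb8 and Hoxb9 lost their calls there. From 24 to 48 h, 15 of 18 calls held with each library left out, those of Hoxa11, Hoxb7 and Hoxb13 being lost at least once. The other 11 members did not reach 1 TPM in 2 libraries, with a highest value of 1.39 TPM (Hoxc6).

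**Figure D4:**
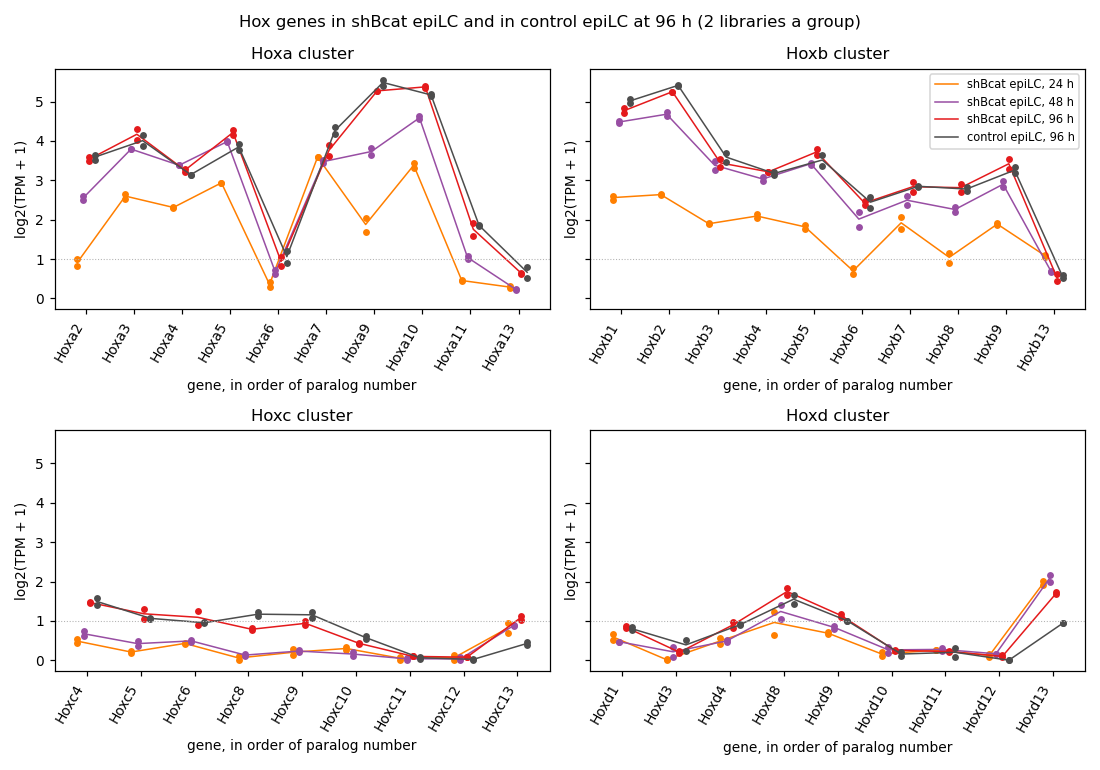
Hox genes in shBcat epiLC at 24, 48 and 96 h and in control epiLC at 96 h, by cluster and paralog number (x axis), as log2(TPM + 1) (y axis). Points are the 2 libraries of each group, lines join group means and the dotted line marks 1 TPM. The red shBcat and black control profiles at 96 h run together in the Hoxa and Hoxb panels, with Hoxa7 lower, and part at Hoxc13 and Hoxd13, where shBcat is higher.

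Control epiLC at 24 and 48 h lie in another, separately normalized table, so their values are set beside those of shBcat without a test. At 24 h the 38 members summed to 75.4 TPM on average with shBcat and 46.5 TPM in controls, and at 48 h to 189.5 and 202 TPM. Hoxa7 at 24 h averaged 11 TPM with shBcat and 6.16 TPM in controls, and Hoxa10 9.43 and 4.81 TPM. At 48 h Hoxa9 averaged 12.3 TPM with shBcat and 27.7 TPM in controls, and Hoxd13 3.25 and 0.84 TPM. Hoxa9 was thus the lower and Hoxd13 the higher in the shBcat table. Of the marker lists, the pluripotency pair summed to 671 and 673 TPM at 48 h with shBcat and 384 and 398 TPM in controls, and the fibroblast list to 13.4 and 13.5 against 28.7 and 28.9 TPM. At 96 h the neural list summed to 65 and 66.1 TPM with shBcat and 47.2 and 52.6 TPM in controls, and the fibroblast list to 18.1 and 19 against 15.7 and 16.2 TPM. Their part in the Hox values was not tested.

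Noncoding transcripts at the anterior end of the Hoxa cluster went separate ways. Halr1, a long noncoding RNA gene on chr6 from 52102949 to 52113684, ranged from 19.1 to 37.1 FPKM over the shGFP libraries and measured 6.52 and 7.95 FPKM with shBcat in V6.5 cells (log2 change -1.74, SE 0.34, adjusted p = 0.0112). In QKO cells it was not lower: it measured 61.9, 68.8 and 72.6 TPM with shBcat and 62.4, 54 and 61.8 TPM with shGFP, and did not pass the test. In control cells it measured 61.03 and 59.1 TPM in 2i, 201 and 200.2 at 24 h, and 45.9 and 37.9 at 48 h, a rise and then a fall. In the other table it measured 301 and 299 TPM at 24 h, 185 and 185 at 48 h and 75.7 and 81.1 at 96 h with shBcat, against 57.8 and 57.3 in control cells at 96 h, and was higher than control at 96 h (log2 change 0.44, SE 0.05, adjusted p = 0.00261). Hotairm1, a long noncoding RNA gene within the cluster, measured 11.9 and 12.2 TPM in 2i, 5.85 and 6.73 at 24 h, and 29.5 and 30.4 at 48 h, so its lowest libraries were those at 24 h. In the other table Hotairm1 measured 10.6 and 7.09 TPM at 24 h, 21.1 and 17.8 at 48 h and 38.02 and 38.2 at 96 h with shBcat, against 29.4 and 39.01 in control cells at 96 h, and did not pass against control.

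**Figure D5:**
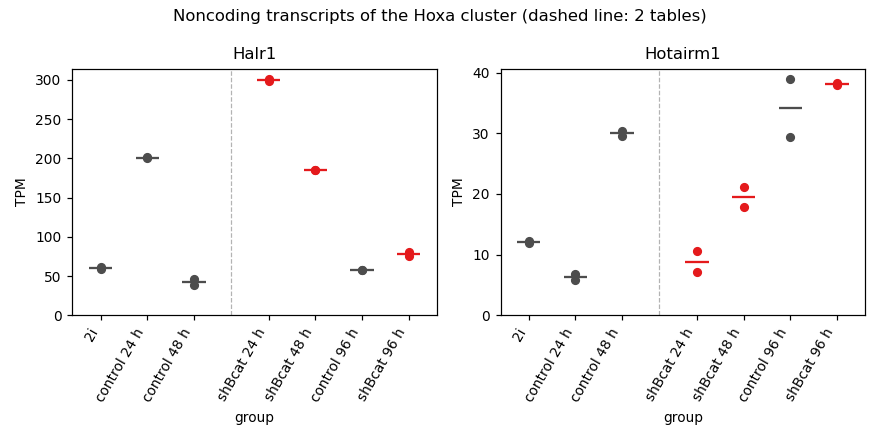
TPM of Halr1 and Hotairm1 in each library of the control cells (left of the dashed line) and of the separately normalized table with shBcat epiLC and 96 h controls (right of it); red points carry shBcat, and bars are group means. Halr1 is highest at 24 h in both tables (200.2 and 201 TPM, 299 and 301 TPM), where Hotairm1 is lowest.

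Of the 7 tested noncoding transcripts of the clusters, 6 rose and 1 fell from 24 to 48 h in control cells, where 45.2% of all tested genes rose and 28.9% fell. Hoxb3os, antisense to Hoxb3, measured 0.38 and 0.46 TPM in 2i, 0.83 and 0.91 at 24 h, and 7.33 and 7.41 at 48 h, and Hoxaas2 measured 0.22 and 0.16 TPM in 2i, 0.06 and 0.03 at 24 h, and 2.93 and 2.59 at 48 h. Both of these, and Hoxa11os as well, reached 1 TPM only at 48 h and were tested only through that group. The count of 6 that rose includes them. Reads from a gene and its antisense partner may not have been told apart, as strand handling is not given in the sources used here. At 96 h Hoxaas2 was lower with shBcat (means 2.04 and 3.6 TPM, log2 change -0.60, SE 0.10, adjusted p = 0.0143).

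Partners and activators of the Hox genes were followed over the same step of the control course, 24 to 48 h, in which 45.2% of all tested genes rose and 28.9% fell. Of the 9 TALE cofactors 8 rose and 1 fell, Meis1 from a mean of 0.55 to 10.5 TPM. Of 9 tested activators 7 rose and 0 fell, Cdx2 from 0.58 to 6.96 TPM and Cdx4 from 0.47 to 5.18 TPM. Cdx2 and Cdx4 reached 1 TPM only at 48 h and were tested only through that group. Cdx1 had fallen before this step, from a mean of 53.3 to 0.535 TPM at 24 h. Retinoic acid genes were mixed, with 6 of 14 higher and 5 lower, among them Crabp1 (10.1 to 81.2 TPM) and Rarg (183 to 51.5 TPM). Of 23 Polycomb and Trithorax genes 4 rose and 13 fell, Jarid2 from 145 to 80 TPM. The shares of these lists were not tested against those of all genes. At 96 h of epiLC, where 2.54% of all tested genes were lower with shBcat than in controls, 2 of 8 tested activators were, T (1.92 against 3.87 TPM) and Cdx2 (2.31 against 3.81 TPM), as were Crabp1 (84.2 against 159 TPM) and Crabp2 (55.5 against 95.3 TPM), and 0 of 9 TALE cofactors passed in limma (2 at an unadjusted p under 0.05).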

How the data were processed

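RNA-seq of 32 libraries was used. Per the submitters' processing notes, mm10 was the genome build; bcl2fastq 2.18, Bowtie2, Cufflinks 2.2.1 and TopHat2 2.0.13 are named for the V6.5 hairpin libraries, and bcl2fastq 2.18, Bowtie2, RSEM and STAR for the others (further versions not given in the sources used here). The authors deposited FPKM values (17043 genes, 12 libraries) and, in 3 further tables, TPM values (6, 6 and 8 libraries). Of the FPKM values, 1 further per-sample column was not used. Depth is unknown for both units. Since both units are shares of a library, a rise of abundant transcripts lowers the other values.

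From these, log2(value + 1) was computed. For each table, all genes that reached 1 in 2 or more of its libraries were fitted together in limma 3.58.1 (R 4.3.3, statmod 1.5.0), group means as coefficients, with trended and robust variance shrinkage. Tests were two-sided, adjusted by the Benjamini-Hochberg method over all tested genes, at 0.05, within a table only. Counts at an unadjusted p under 0.05 stand without the share of all tested genes under that p, so they cannot show an excess. The fit was tested on simulated data.

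All Hox members are accounted for, with values per library where called or at a mean of at least 1. Companion lists are given as counts, with up to 4 members of smallest p named. Members and lists were chosen with earlier results of these data known. Alternatives were another pseudocount, other filters, scaling, fits, a replicate block, library sets and left-out libraries. Replicate numbers were not used as pairs, since in no table did every same-numbered pair of libraries deviate together. Promoter windows are RefSeq GRCm38.p6. No protein sequence was used here. Some genes are counted but not reported here by value, and sums leave them out.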

Additional observations from a re-analysis of the deposited data

Results flagged for a closer look

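Hoxa7 had log2 changes of opposite sign in the 2 epiLC time courses. From 24 to 48 h it rose in control cells, where both 48 h libraries stood above both 24 h libraries (log2 change 0.46), and with shBcat both 48 h libraries stood below both 24 h libraries (log2 change -0.11, which did not pass the test). The difference of 0.57 on the log2 scale between them was not tested, since the courses lie in separately normalized tables. Hoxd13 also had opposite signs in this step: it fell in control cells (log2 change -0.80), and with shBcat its 24 and 48 h libraries overlapped (log2 change 0.13, which did not pass). That difference was not tested either. Among the 18 listed Hox genes, 0 had a library standing apart from the other 5 in the shGFP group; chance sets one apart in about 1 of 20 groups.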

How the results depend on the processing

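Under every alternative run, 0 called Hox genes reversed direction. The counts of called members moved as follows. With a minimum of 5 in 2 libraries, which tests fewer genes, the count was 1 for shBcat against shGFP in V6.5 cells, 1 for shHP1r and 1 for shE2F6 against shBcat, 1 in QKO cells (Hoxb9), 12, 14 and 14 for control epiLC at 24 h against 2i, 48 against 24 h and 48 h against 2i, 2 for shBcat against control at 96 h and 9 for shBcat at 96 against 48 h. With no filter it was 3 for shHP1r against shGFP, 10 for shHP1r against shBcat and 1 at 96 h. With no filter and a pseudocount of 0.1 together, chosen after seeing the data, it was 8 for shBcat against shGFP, 4 for shHP1r against shGFP, 12 and 8 for shHP1r and shE2F6 against shBcat, and 2 at 96 h. A term for shE2F6 and shGFP replicates 3 and 4 gave 7 and 3 for shHP1r and shE2F6 against shBcat. Averaging the V6.5 hairpin libraries in pairs, which leaves fewer samples, gave 0 for shBcat against shGFP, 1 for shHP1r against shBcat and 0 for shE2F6 against shBcat. A fit of the compared groups alone gave 1 at 96 h.

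With 1 library left out at a time the counts ranged from 1 to 4 for shBcat against shGFP in V6.5 cells, 0 to 1 for shE2F6 and 0 to 2 for shHP1r against shGFP, 1 to 3 for shHP1r and 1 to 2 for shE2F6 against shBcat, and 0 to 1 in QKO cells. In control epiLC they ranged from 18 to 21 at 24 h against 2i, 20 to 25 for 48 against 24 h and 20 to 23 for 48 h against 2i. With shBcat they were 1 to 2 at 96 h against control, 16 for 48 against 24 h and 10 to 15 for 96 against 48 h. Where 1 library was left in a group, its spread was taken from the other groups.

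The replicate block gave 2 calls for shE2F6 against shGFP (Hoxa4 higher, Hoxc4 lower), where 7685 genes were called in all, and 4 for shBcat against shGFP, with Hoxc4 in place of Hoxa4. Same-numbered libraries correlated in their deviations from -0.142 to 0.174 in the V6.5 hairpin table, -0.042 to 0.131 in QKO, -0.019 to 0.087 in control and -0.096 to 0.283 in shBcat epiLC libraries, so the numbers were not taken as pairs. Neither unit keeps depth, so counting error is not included in any value.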

Other observations

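Homeobox relatives and neighbours of the clusters were also followed. Of 5 homeobox genes at the cluster ends and in the ParaHox cluster, 2 were tested in control epiLC, and both rose from 24 to 48 h. Evx1, beside the posterior end of Hoxa, averaged 0.1 ± 0.0566 TPM (SD, n = 2) at 24 h and 1.36 ± 0.0849 TPM (SD, n = 2) at 48 h (log2 change 1.10, SE 0.08, adjusted p = 2.11e-05). Evx1 reached 1 TPM only at 48 h, so it was tested only through the group where it was high. Gsx1, a ParaHox gene, averaged 1.16 ± 0.177 TPM (SD, n = 2) at 24 h and 2.15 ± 0.247 TPM (SD, n = 2) at 48 h (log2 change 0.55, SE 0.10, adjusted p = 0.0018). Of 10 tested coding genes beside the clusters, 7 rose and 2 fell in that step, where 45.2% of all tested genes rose and 28.9% fell.

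Skap2, on chr6 from 51859165 to 52012549 on the far side of Halr1, was the 1 of 8 tested neighbours that passed in V6.5 cells with shBcat. It measured 16.6 and 14.3 FPKM with shBcat against a mean of 23.8 FPKM with shGFP (log2 change -0.60, SE 0.09, adjusted p = 0.00213), the same direction as Halr1. In QKO cells with shBcat 0 of 9 tested neighbours passed in limma (3 at an unadjusted p under 0.05).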
